A study of Mus musculus with 12 samples.

Results

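The heat shock chaperones described here were 10 genes chosen by symbol: Hspa1a, Hspa1b, Hspa8, Hsph1, Dnajb1, Bag3, Hsp90aa1, Hspb1, Hspd1 and Hspe1. All 10 were found among the 11289 genes measured in mouse liver. The livers came from C57BL/6J mice in 3 groups of 4, which were the control group, the Con A + PBS group and the Con A + hWJ-MSCs group. Concanavalin A (Con A) is a jack bean lectin that stimulates T cells and causes acute hepatitis in mice, and it was injected into the tail vein at 15 mg/kg. PBS or hWJ-MSCs, which are mesenchymal stromal cells from the Wharton's jelly of the human umbilical cord, were given intravenously 30 min later, and livers were collected at 24 h. The labels give an age of 8 to 10 weeks and 2000000 cells per mouse, whereas the methods of the study give younger mice and fewer cells. What the control mice were injected with was not given in the sources used here. The question was how the chaperone transcripts of the liver differed after Con A, and whether they differed with the cells.

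Chaperones bind unfolded proteins and help them fold, hold them until they can fold, or pass them on for degradation. Heat, oxidants, fever and other causes of protein damage activate heat shock factors, which bind heat shock elements (runs of inverted GAA units) in front of these genes. HSP70 proteins work in a cycle with J-domain proteins, which deliver clients and start ATP hydrolysis, and with exchange factors, which release ADP. HSP90 completes the folding of kinases and steroid receptors, small heat shock proteins hold unfolded clients without ATP, and a separate chaperonin folds proteins in mitochondria. The liver makes and secretes large amounts of protein, and its hepatocytes hold constitutive chaperones at high levels.

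The sequences around the starts of the members are shown first because members that are controlled by heat shock factors are known to share heat shock elements. RefSeq promoter windows (GRCm38.p6), each with 250 bases before a transcription start and 50 after it, were found for 8 of the 10 genes, in 11 windows. Hsp90aa1 and Hspa8 were not matched. A heat shock element of 2 units (GAANNTTC or TTCNNGAA, each of which reads the same on both strands) was present in the windows of 7 of the 8 genes, and in 8 of the 11 windows, compared with 15.1% of all 32851 windows. An element of 3 units (either shorter motif extended by NN and a further inverted unit, searched on both strands) was found for 3 genes, Hspd1, Hspe1 and Hsph1, in 4 of the 11 windows, and in 0.603% of all windows. These windows are not independent, since Hspd1 and Hspe1 share their element and the windows of Hsph1 overlap at theirs. TATAAA, searched on both strands, was in 0 of the 11 windows and in 13.6% of all windows. Dnajb1 had none of these letters within its window. A match of letters is a description and not a measured binding site.

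Hspa1a and Hspa1b, the stress-inducible HSP70 genes, lie 9951 bases apart on chromosome 17. Their 250 bases before the start are printed in full, since these genes share nearly all of them. The capitals mark the heat shock element of 2 units, whose first base lies at position -104 from the start in both genes.
Hspa1a, chr17:34972157-34972406, minus strand: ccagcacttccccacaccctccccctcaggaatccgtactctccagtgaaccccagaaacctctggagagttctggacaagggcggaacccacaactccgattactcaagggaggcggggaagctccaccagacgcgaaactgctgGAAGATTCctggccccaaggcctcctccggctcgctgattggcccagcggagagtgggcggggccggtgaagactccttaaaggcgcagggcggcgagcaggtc
Hspa1b, chr17:34959239-34959488, minus strand: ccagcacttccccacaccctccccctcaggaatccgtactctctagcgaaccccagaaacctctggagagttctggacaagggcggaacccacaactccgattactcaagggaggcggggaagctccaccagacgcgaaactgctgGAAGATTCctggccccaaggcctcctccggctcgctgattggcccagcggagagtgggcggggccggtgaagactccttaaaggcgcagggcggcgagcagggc
The stretches were identical at 247 of 250 positions. Counted from 1 at the 5′ end of the printed stretch, with the base of Hspa1a first, the differences were C44T, T47C and T249G, all outside the capitals. Neither stretch overlapped an annotated exon.

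Sites of 30 bases are printed for the genes with an element of 3 units and for the other genes with an element of 2 units, with the element in capitals.
Hspe1 and Hspd1, chr1:55088053-55088082, plus strand: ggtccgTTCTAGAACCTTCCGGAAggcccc
Hsph1, chr5:149636280-149636309, minus strand: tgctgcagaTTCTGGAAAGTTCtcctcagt
Hspb1, chr5:135887791-135887820, plus strand: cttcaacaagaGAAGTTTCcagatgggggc
Hspb1, chr5:135887811-135887840, plus strand: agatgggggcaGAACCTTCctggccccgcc
Bag3, chr7:128523603-128523632, plus strand: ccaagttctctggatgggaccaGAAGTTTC
Hspd1 and Hspe1 are transcribed away from each other, and 107 bases lie between the starts the authors list for them, 55088024 on the minus strand and 55088132 on the plus strand of chromosome 1. The element printed first lies between these starts and therefore in the windows of both genes. It also falls within an exon of a longer annotated Hspd1 transcript. The Hsph1 site lies within an exon of Hsph1 and the Bag3 site reaches into an exon of Bag3, whereas both Hspb1 sites lie outside annotated exons. The printed elements of Hsph1 and Bag3 lie after the start and not in front of it. Their first base was at position 37 or 16, by window, for Hsph1 and at 43 for Bag3. Hsph1 also had an element of 2 units before the start, at -33 or -54, which is not printed.

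The authors deposited 1 whole-number value for each gene in each mouse, already normalized between mice, and these are the values given below. Totals per mouse ranged from 17649654 to 17657159 and 10 genes in every mouse shared the largest value of 341028, so that the totals do not show the depth, which is unknown. The same values recur between mice at the top of the scale, for example 13961 for Hspa8 in 4 mice. The hepatocyte markers that define liver, of which 9 of 10 were in the table and none was at 0 in any mouse, had a summed value of 1276609 to 1453040 in control mice, 1001293 to 1068034 after Con A + PBS and 1035082 to 1093257 after Con A + hWJ-MSCs. Con A + PBS replicate 4 stood apart, with -55.2 on the second principal component compared with -20.1 to 35.2 in the other 11 mice, and with the lowest array quality weight of the 12 mice (0.258). It had the lowest value of its group for 8 of the 10 chaperones and for 36.1% of all genes. It had the highest value for 1 chaperone and for 39.8% of all genes, so results are also given without it.

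After Con A and PBS, all 10 chaperones rose relative to control liver (limma, adjusted p below 0.05 and fold change above 1.5). Of all genes, 19.5% were called higher in this comparison, but the members were chosen with earlier results of these data known. The increases ran from 1.56-fold for Hspd1 to 13.6-fold for Hspa1a, whose size depended on the pseudocount, with a median log2 fold change of 1.45 for the 10 genes and 0.05 for all genes. Hspa1a was among the genes measured only through its values in Con A mice, so its rise was partly set in advance. For 7 of the 10 every Con A + PBS mouse was above every control mouse, which held for 27.1% of all genes. The remaining 3, Hsph1, Hspb1 and Hspe1, overlapped with control through Con A + PBS replicate 4 alone. Without that mouse all 10 were again called, beside 18.3% of all genes. A transcript of whole liver can be higher or lower because more or fewer cells of a type are present, or because each cell holds more or less of it. These cannot be told apart here.

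With hWJ-MSCs, only Hspa8 and Bag3 were called lower than with PBS, 2 of the 10 genes compared with 4.38% of all genes, and 0 were called higher by limma (4.20% of all genes). Without adjustment, 4 of the 10 had p below 0.05, all lower with the cells, compared with 16.6% of all genes. The log2 fold changes of the 10 genes ran from -1.27 to 0.15 with a median of -0.54, and the median of all genes was 0.00. For 3 genes, Hspa1a, Hspa8 and Bag3, every mouse given cells was below every Con A + PBS mouse (11.6% of all genes). Without Con A + PBS replicate 4, the genes called lower were Hspa8, Hsp90aa1 and Hspa1b, 3 of 10 beside 1.32% of all genes, and Bag3 was at an adjusted p of 0.0551. Relative to control liver, 8 of the 10 were still higher with the cells (13.6% of all genes), the exceptions being Hspa8 and Hspd1, and for 9 of the 10 every mouse given cells was above every control mouse (20.6% of all genes). The comparisons with control share the control mice, and those of the Con A groups share the Con A + PBS mice, so they are not independent of each other.

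**Figure D1:**
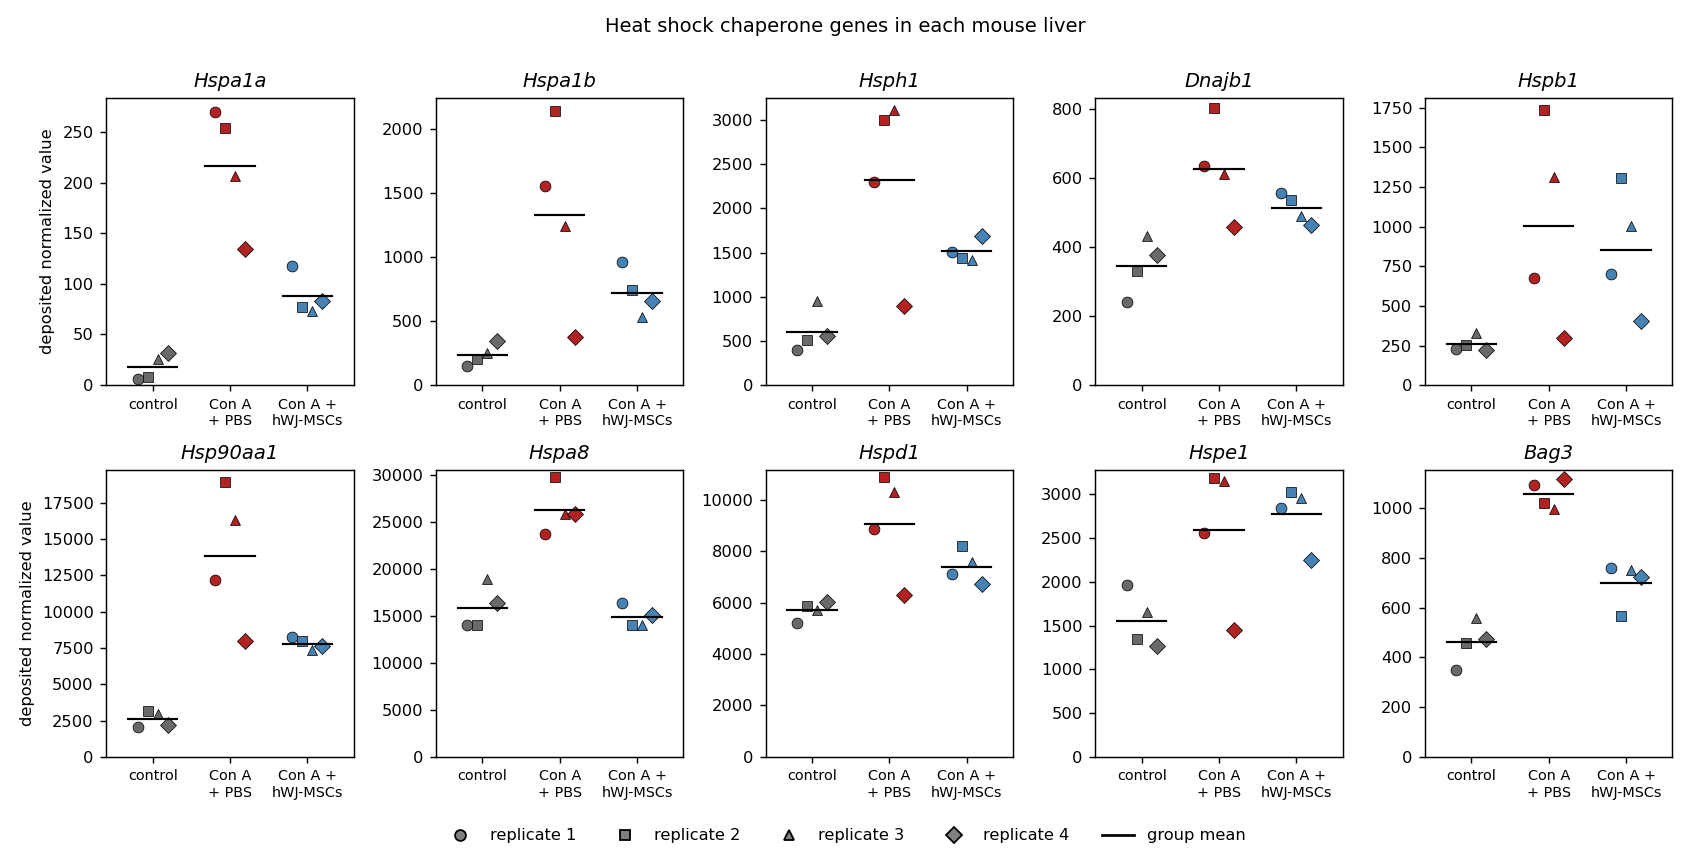
Deposited normalized value (vertical axis, linear, from 0) of each heat shock chaperone in the 4 mice of each group, with 1 marker per mouse by replicate number and a line at the group mean. Con A + PBS replicate 4, the red diamond, lies lowest of its group in 8 of the 10 panels, but is the highest for Bag3, and Hspa1a, Hspa8 and Bag3 show no overlap between the Con A groups.

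**Figure D2:**
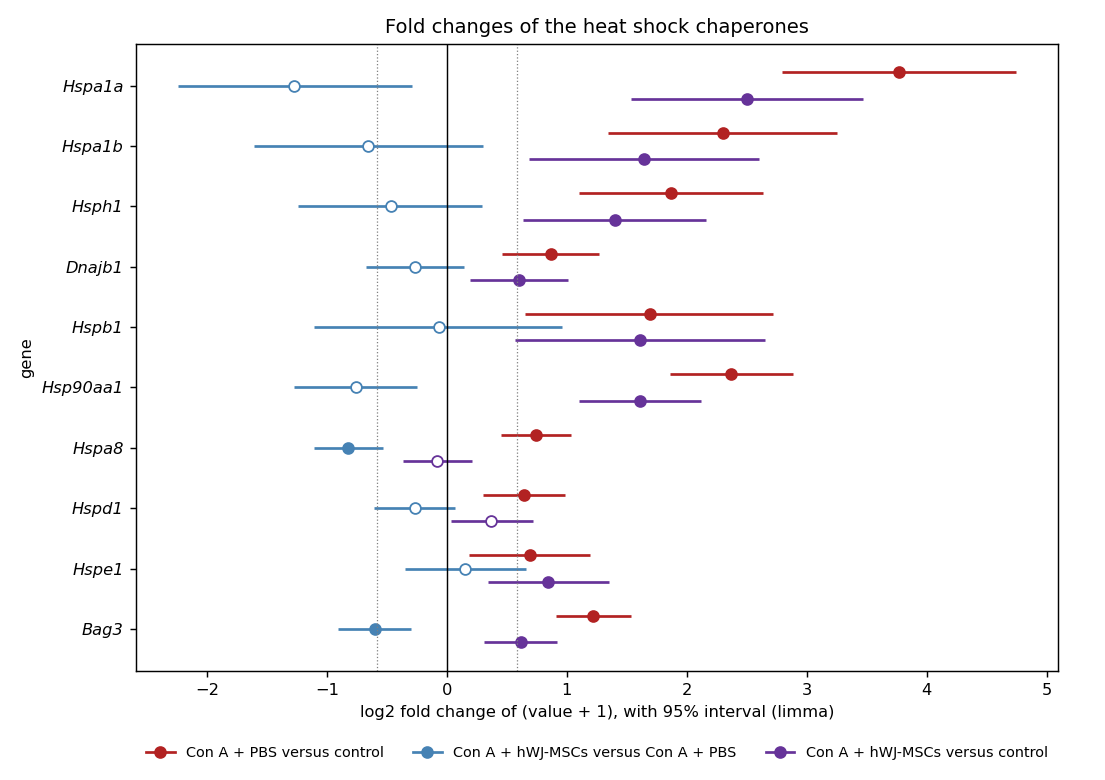
Log2 fold change of (value + 1) for each chaperone in the 3 comparisons, with 95% intervals from limma, filled where called and open where not. Dotted lines mark a fold change of 1.5, and all 10 genes are filled to the right of 0 for Con A + PBS versus control, whereas only Hspa8 and Bag3 are filled for the cells versus PBS.

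Hspa1a (ENSMUSG00000091971, chr17:34969190-34972156, minus strand) encodes the inducible HSP70, which is scarce in unstressed cells. Its values were 6, 8, 26 and 32 in the 4 control mice, 270, 254, 206 and 134 after Con A + PBS, and 118, 77, 73 and 83 after Con A + hWJ-MSCs. The 3 groups did not overlap with each other at any point, with control lowest and Con A + PBS highest. The log2 fold change was 3.77 ± 0.45 (SE, n = 4 per group, adjusted p = 2.7e-05) after Con A + PBS and 2.50 ± 0.45 (adjusted p = 9.8e-04) after Con A + hWJ-MSCs, both against control. The control values are so low that the pseudocount bears on these changes, which were 3.09 and 1.91 with a pseudocount of 10. All genes measured here were at 64 or more in at least 2 mice, and for Hspa1a only Con A mice reached 64. Its rise against control was thus partly set by that limit. Between the Con A groups the difference was -1.27 ± 0.45 with a 95% interval of -2.24 to -0.29, and the adjusted p of 0.0725 missed the threshold. That difference passed with a pseudocount of 10 (-1.19, adjusted p = 0.034), with only the 8 mice of these groups (adjusted p = 0.0333), with array quality weights (adjusted p = 0.0194) and without control replicate 1 (adjusted p = 0.0425). In the other 16 of 20 alternatives it did not pass.

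Hspa1b (ENSMUSG00000090877, chr17:34956436-34959238, minus strand) encodes a protein nearly identical to that of Hspa1a. It was read at 148, 204, 250 and 343 in control mice, at 1553, 2138, 1238 and 372 after Con A + PBS, and at 958, 740, 528 and 660 after Con A + hWJ-MSCs. Con A + PBS replicate 4, at 372, was only just above the highest control mouse, and the other 3 mice of its group were above every mouse given cells. The log2 fold change against control was 2.30 ± 0.44 (adjusted p = 8.8e-04) with PBS and 1.64 ± 0.44 (adjusted p = 0.0107) with the cells. Cells against PBS gave -0.66 ± 0.44 (95% interval -1.61 to 0.30, adjusted p = 0.307), and -1.18 ± 0.28 (adjusted p = 0.045) without Con A + PBS replicate 4.

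Reads of these neighbours cannot always be told apart: of the 2818 stretches of 150 bases (the read length) in the Hspa1a transcript, 1074 were also found in Hspa1b. The summed value of both genes was therefore also tested, a choice made after seeing the data. The sum was 254 ± 94.7 (SD, n = 4) in control mice, 1541 ± 793 after Con A + PBS and 809 ± 199 after Con A + hWJ-MSCs. It rose by 2.47 ± 0.41 on the log2 scale with PBS (adjusted p = 3.2e-04) and by 1.71 ± 0.41 with the cells (adjusted p = 0.00575), and the difference between the Con A groups was -0.75 ± 0.41 (adjusted p = 0.21).

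Hspa8 (ENSMUSG00000015656, chr9:40800984-40805200, plus strand) encodes HSC70, the constitutive cytosolic HSP70 that folds new proteins and uncoats clathrin vesicles. Control mice had values of 13961, 13961, 18948 and 16364, Con A + PBS mice 23652, 29712, 25838 and 25838, and Con A + hWJ-MSCs mice 16364, 13961, 13961 and 15125. All 4 Con A + PBS mice lay above all 8 others, while the mice given cells lay within the range of control. Hspa8 was higher by 0.74 ± 0.13 on the log2 scale after Con A + PBS (adjusted p = 6.0e-04), was lower with the cells than with PBS (-0.82 ± 0.13, adjusted p = 0.0174), and differed from control by -0.08 ± 0.13 with the cells (95% interval -0.37 to 0.21, adjusted p = 0.661). The difference between the Con A groups changed little without Con A + PBS replicate 4, at -0.83 ± 0.14 (adjusted p = 0.0305). The call was lost without Con A + PBS replicate 1 (-0.87, adjusted p = 0.0696), without Con A + hWJ-MSCs replicate 2 (-0.79, adjusted p = 0.0609) and without Con A + hWJ-MSCs replicate 3 (-0.79, adjusted p = 0.0547).

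Hsph1 (ENSMUSG00000029657, chr5:149614287-149636171, minus strand) encodes HSP105, an HSP110 protein that exchanges nucleotide on HSP70 and takes part in the solubilization of aggregates. The control values of 392, 516, 954 and 556 compared with 2296, 2993, 3109 and 895 after Con A + PBS and with 1508, 1442, 1410 and 1686 after Con A + hWJ-MSCs. Mice given cells were close together and all above control, and 3 of the 4 Con A + PBS mice were above them. The log2 fold change was 1.87 ± 0.35 with PBS (adjusted p = 7.8e-04) and 1.40 ± 0.35 with the cells (adjusted p = 0.00773) against control. The cells differed from PBS by -0.47 ± 0.35 (95% interval -1.24 to 0.29, adjusted p = 0.362), and by -0.88 ± 0.24 without Con A + PBS replicate 4 (adjusted p = 0.0555).

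Dnajb1 (ENSMUSG00000005483, chr8:83608175-83611902, plus strand) encodes HSP40, the stress-inducible J-domain partner of HSP70. Values were 240, 330, 431 and 377 in control mice, 636, 803, 612 and 458 after Con A + PBS and 558, 537, 491 and 465 after Con A + hWJ-MSCs. Neither Con A group overlapped with control, and they overlapped with each other. Dnajb1 rose by 0.87 ± 0.19 on the log2 scale with PBS (adjusted p = 0.00194) and by 0.60 ± 0.19 with the cells (adjusted p = 0.0226), and the cells differed from PBS by -0.27 ± 0.19 (95% interval -0.67 to 0.14, adjusted p = 0.332). The call with the cells against control was narrow and was lost without control replicate 1 (0.44, adjusted p = 0.0584), without Con A + hWJ-MSCs replicate 1 (0.56, adjusted p = 0.0604) and without Con A + hWJ-MSCs replicate 2 (0.58, adjusted p = 0.0465, fold change under 1.5), and with array quality weights (0.55, fold change under 1.5).

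Bag3 (ENSMUSG00000030847, chr7:128523583-128546977, plus strand) encodes an exchange factor that binds HSP70 and small heat shock proteins and directs damaged clients to autophagy. In control mice it was at 348, 458, 560 and 474, in Con A + PBS mice at 1095, 1022, 998 and 1116, and in Con A + hWJ-MSCs mice at 758, 568, 753 and 722. The 3 groups were fully separated, with the mice given cells between the others, and Con A + PBS replicate 4 had the highest value of all 12. Bag3 was 1.22 ± 0.14 higher with PBS (log2, adjusted p = 2.3e-05) and 0.62 ± 0.14 higher with the cells (adjusted p = 0.00445) than in control, and was lower with the cells than with PBS (-0.60 ± 0.14, adjusted p = 0.0267). The last call was lost without Con A + PBS replicate 1 (-0.59, adjusted p = 0.0795) or 4 (-0.58, adjusted p = 0.0551), and without Con A + hWJ-MSCs replicate 2 (-0.51, adjusted p = 0.0837) or 3 (-0.64, adjusted p = 0.0646). It was also lost with array quality weights, where the fold change was under 1.5 (-0.53, adjusted p = 0.0055). Against control, the call with the cells was lost, because the fold change fell under 1.5, without control replicate 1 (0.49) and without Con A + hWJ-MSCs replicate 1 (0.57) or 3 (0.58).

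Hsp90aa1 (ENSMUSG00000021270, chr12:110690605-110696395, minus strand) encodes the inducible cytosolic HSP90, which matures kinases and steroid hormone receptors. It had values of 2057, 3161, 2971 and 2181 in control mice, 12210, 18917, 16327 and 7945 after Con A + PBS and 8231, 7945, 7341 and 7608 after Con A + hWJ-MSCs. The mice given cells differed little among themselves and were all above control, while 3 of the 4 Con A + PBS mice were above them and replicate 4 lay within their range. The log2 fold change against control was 2.37 ± 0.24 with PBS (adjusted p = 7.0e-06) and 1.61 ± 0.24 with the cells (adjusted p = 2.4e-04). Cells against PBS gave -0.76 ± 0.24 (95% interval -1.27 to -0.25), whose adjusted p of 0.0512 was just over the threshold. It passed without Con A + PBS replicate 4 (-1.0 ± 0.18, adjusted p = 0.0305), without control replicate 1 (adjusted p = 0.0462), when genes of low value were left out (adjusted p = 0.0485), with a pseudocount of 10 (adjusted p = 0.0496) and with array quality weights (-0.96, adjusted p = 0.00407). The same held with the replicate number as a block (adjusted p = 0.0277). In the other 15 of 21 alternatives it did not pass.

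Hspb1 (ENSMUSG00000004951, chr5:135887919-135889563, plus strand) encodes HSP25, the mouse form of HSP27, a small heat shock protein that holds unfolded clients and stabilizes actin. It had the largest SD of the log2 values among the members in both Con A groups, with values of 226, 254, 332 and 222 in control mice, 674, 1734, 1312 and 298 with PBS and 704, 1306, 1004 and 404 with the cells. Replicate 4 was lowest in each Con A group, within the control range with PBS and just above it with the cells. Hspb1 rose by 1.69 ± 0.48 on the log2 scale with PBS (adjusted p = 0.0098) and by 1.61 ± 0.48 with the cells (adjusted p = 0.0177), a call that was lost without Con A + hWJ-MSCs replicate 3 (1.49, adjusted p = 0.0516). The cells differed from PBS by -0.07 ± 0.48, with a wide 95% interval of -1.11 to 0.96 (adjusted p = 0.93).

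Hspd1 (ENSMUSG00000025980, chr1:55077835-55088024, minus strand) encodes HSP60, the barrel of the mitochondrial chaperonin. Its values were 5228, 5884, 5710 and 6020 in control mice, 8862, 10897, 10305 and 6291 after Con A + PBS and 7104, 8202, 7576 and 6720 after Con A + hWJ-MSCs. Every Con A mouse was above every control mouse, although Con A + PBS replicate 4 was close to them. The log2 fold change with PBS was 0.64 ± 0.16 (adjusted p = 0.00438) and fell below a fold change of 1.5 without Con A + PBS replicate 2 (0.54) or 3 (0.57). With the cells it was 0.37 ± 0.16 against control (95% interval 0.03 to 0.72, adjusted p = 0.0785) and -0.27 ± 0.16 against PBS (95% interval -0.61 to 0.07, adjusted p = 0.243).

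Hspe1 (ENSMUSG00000073676, chr1:55088132-55091307, plus strand) encodes HSP10, the lid of the same chaperonin. It was read at 1966, 1342, 1660 and 1264 in control mice, 2564, 3184, 3148 and 1453 after Con A + PBS and 2846, 3027, 2957 and 2251 after Con A + hWJ-MSCs. This was the only member whose fitted difference between cells and PBS was positive, at 0.15 ± 0.23 (95% interval -0.35 to 0.66, adjusted p = 0.663), and it was -0.10 without Con A + PBS replicate 4. Against control Hspe1 rose by 0.69 ± 0.23 with PBS (adjusted p = 0.0235) and by 0.84 ± 0.23 with the cells (adjusted p = 0.0122). The call with PBS was the least stable of the 10. It was lost without control replicate 2 (adjusted p = 0.061) or 4 (adjusted p = 0.0668) and without Con A + PBS replicate 1 (adjusted p = 0.0514), 2 (adjusted p = 0.0671) or 3 (adjusted p = 0.071). The ratio of the Hspd1 value to the Hspe1 value in the same mouse was 2.50 to 2.99 with the cells and 3.27 to 4.33 with PBS, and the control range of 2.66 to 4.76 overlapped with both.

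**Figure D3:**
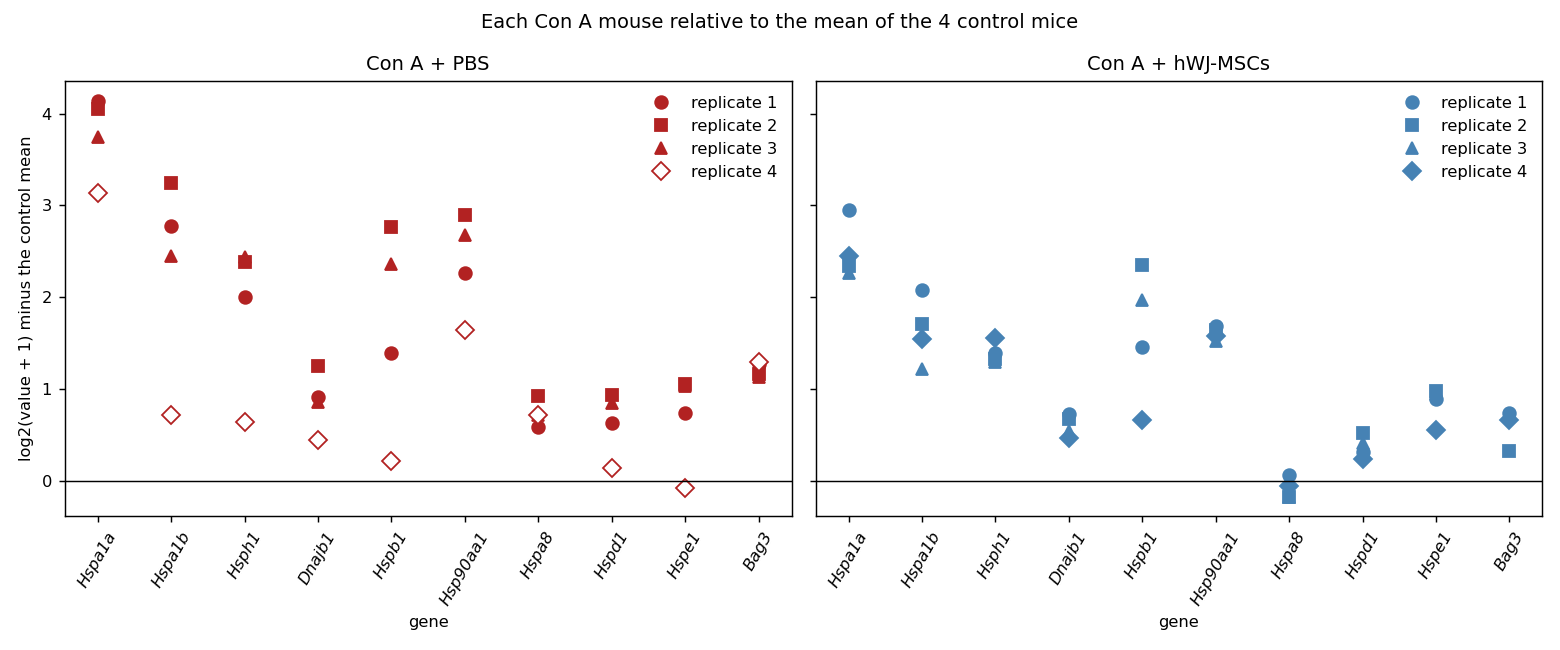
Log2 of (value + 1) in each Con A mouse minus the mean of the 4 control mice, by gene, for the PBS group and the group given hWJ-MSCs. Con A + PBS replicate 4 (open diamonds) lies well below the other 3 for most genes but not for Hspa8 and Bag3, and the mice given cells lie around 0 for Hspa8.

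Con A + PBS replicate 4 was compared with the mean of the other 3 mice of its group for each member. The other mice were 4.42-fold higher for Hspa1b, 4.16-fold for Hspb1, 3.13-fold for Hsph1, 2.04-fold for Hspe1, 1.99-fold for Hsp90aa1, 1.82-fold for Hspa1a, 1.59-fold for Hspd1 and 1.49-fold for Dnajb1. For Hspa8 the ratio was 1.02 and for Bag3 0.93. In this mouse 8 of the 10 chaperones were therefore lower than in its group, with Hspa8 and Bag3 as the exceptions. Its cholangiocyte markers, of which 5 of 8 were in the table and Cftr was at 0 in at least 1 mouse, summed to 13505, the top of the Con A + PBS range of 2660 to 13505, against 2710 to 4865 in control mice and 2605 to 6884 with the cells. Their part in the result was not tested.

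Calls among other cell type markers were counted for Con A + PBS against control, where 19.5% of all genes were called higher and 19.2% lower. Of the monocyte and neutrophil markers, 8 of the 9 in the table rose with PBS and 1 fell, and their sum was 944 to 1335 in control mice, 1708 to 2819 with PBS and 1840 to 3079 with the cells, with Retnlg at 0 in at least 1 mouse. Of 9 macrophage and Kupffer cell markers, 8 fell and 1 rose, with sums of 4815 to 7327, 1763 to 2573 and 862 to 2483 in the same order. Of 10 liver endothelial markers, 7 fell and 1 rose, with sums of 3560 to 5105, 1710 to 2416 and 2046 to 2720. Of 9 stellate cell and fibroblast markers 3 fell, with sums of 5384 to 8486, 6602 to 7665 and 4956 to 10408, which overlapped between all groups. Of 9 hepatocyte markers 4 fell and 1 rose. Only 3 of 10 T cell markers were in the table, with sums of 90 to 147, 245 to 358 and 154 to 243 and Cd8a at 0 in at least 1 mouse. The part of these changes in the chaperone results was not tested.

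Levels were compared between genes per kilobase of transcript, for the 9 members with a transcript length, which takes the deposited values to grow with length as read counts do. The length was that of the GENCODE transcript with the identifier listed by the authors. For Dnajb1 and Bag3 the start and end of that transcript differ from the authors' coordinates, so their levels are less certain. In control liver the level per kilobase was 6603 ± 994 (SD, n = 4) for Hspa8, followed by Hspd1 (2357 ± 143), Hspe1 (2013 ± 415), Hsp90aa1 (790 ± 169), Hspb1 (286 ± 56.5), Bag3 (180 ± 34.0), Dnajb1 (115 ± 27.0), Hspa1b (84.3 ± 29.4) and Hspa1a (6.07 ± 4.37). Between neighbours in this order the ranges of mean ± SD overlapped for Hspd1 and Hspe1 and for Dnajb1 and Hspa1b. After Con A + PBS Hspa8 was still at the top (10969 ± 1053). Hsp90aa1 (4221 ± 1466), Hspd1 (3751 ± 847) and Hspe1 (3343 ± 1044) then had overlapping ranges, as did Hspb1 (1112 ± 711), Hspa1b (473 ± 263) and Bag3 (413 ± 22.1), and so did Hspa1b and Dnajb1 (209 ± 47.1), whereas Hspa1a was again lowest (72.8 ± 20.6). With the cells, Hspa8 was at 6204 ± 479, Hsp90aa1 at 2372 ± 118 and Hspa1a at 29.6 ± 6.94 per kilobase. Hspa1a thus had the largest fold change of the members and the lowest level in each group. Both depend on how reads shared with Hspa1b were divided. The sum of these genes rose by 2.47 ± 0.41 on the log2 scale with PBS, beside 2.37 ± 0.24 for Hsp90aa1.

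Several members share sequence with other annotated genes, mostly pseudogenes. The submitters' notes name RSEM, and how it divided such reads between these genes was not examined here. The stretches stand for single reads, whereas the reads were paired, so a shared stretch does not mean that the whole pair is shared. Of the 150-base stretches of each transcript, 56.0% were shared for Hspa8, 53.4% for Hspb1, 46.0% for Hspa1a, 40.5% for Hspa1b, 36.2% for Hsp90aa1, 18.6% for Hspd1 and 14.1% for Hspe1. For Dnajb1 and Bag3 0 stretches were shared, so that of the genes called lower with the cells Bag3 is free of this limit and Hspa8 is not. The Hsph1 transcript listed by the authors was not found in the annotation used here.

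The wider chaperone network was covered by 9 lists with 110 genes, of which 100 were in the table. These lists, too, were chosen with earlier results of these data known. After Con A + PBS, 39 of the 100 rose and 6 fell relative to control (all genes, 19.5% and 19.2%), with a median log2 fold change of 0.41. With the cells against PBS, 3 rose and 1 fell (all genes, 4.20% and 4.38%), with a median of -0.03. With the cells against control, 27 rose and 4 fell (all genes, 13.6% and 13.1%). The same shares of all genes apply to the counts of each list below, and several lists hold few genes.

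Among the HSP70 and HSP110 relatives, 3 of 4 rose after Con A + PBS. They were Hspa2, an HSP70 best known from testis, at 0.86 ± 0.24 (adjusted p = 0.00978), Hspa4l, an HSP110 gene, at 0.80 ± 0.31 (adjusted p = 0.0408), and Hspa4, another HSP110 gene, at 0.75 ± 0.14 (adjusted p = 6.3e-04). Hspa2 was also the only gene of the network that fell with the cells (-0.81 ± 0.24, adjusted p = 0.0478), from 86 to 133 in the PBS mice to 38 to 84 in the mice given cells. Without Con A + PBS replicate 4 this call was lost (-0.73) and Hspa4l was called lower (-0.88).

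Of 15 J-domain co-chaperones, 4 rose with PBS, beside 19.5% of all genes, and 11 were not called. Among the 4 were Dnajc2, which works on new chains at the ribosome, at 0.74 ± 0.15, Dnajc21, a ribosome assembly factor, at 0.71 ± 0.13 and Dnaja2, a cytosolic HSP70 partner, at 0.64 ± 0.13. Dnaja2 was at 0.51 and no longer called without Con A + PBS replicate 4. Of 8 nucleotide exchange and ubiquitin partners of HSP70, 1 fell and 7 were not called. The gene that fell was Bag4, a relative of Bag3, at -0.64 ± 0.21 (adjusted p = 0.0217), which was at -0.50 without that mouse and then not called. None of these genes was called between the Con A groups.

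Of 17 HSP90 genes and co-chaperones, 7 rose with PBS. The largest was Fkbp5, which binds HSP90 in steroid receptor complexes and is itself induced by glucocorticoids, with 778 to 1564 in control mice, 1826 to 3242 with PBS and 1886 to 3564 with the cells. Its log2 fold change was 1.40 ± 0.26 (adjusted p = 6.4e-04). Chordc1, an HSP90 co-chaperone, was at 0.86 ± 0.22 and Cacybp, which binds the SIAH1 ligase, at 0.84 ± 0.18. With the cells, all 3 remained above control, at 1.30, 0.75 and 0.81.

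Of 4 small heat shock protein genes besides Hspb1, 1 fell with PBS and 3 were not called. The gene that fell was Hspb6, which encodes HSP20 and was at 204 to 271 in control mice, 80 to 84 with PBS and 105 to 147 with the cells. The groups did not overlap. Hspb6 fell with PBS against control (-1.50 ± 0.13, adjusted p = 2.1e-06), where Hspb1 rose, and was higher with the cells than with PBS (0.61 ± 0.13, adjusted p = 0.0224), where Hspb1 was not called.

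Of 16 mitochondrial chaperones and proteases besides Hspd1 and Hspe1, 2 rose and 2 fell with PBS (all genes, 19.5% and 19.2%), with a median of -0.13. Dnaja3, a mitochondrial J-domain protein, rose by 0.61 ± 0.16. Trap1, the mitochondrial HSP90, was lower at -0.69 ± 0.09 (adjusted p = 6.0e-05), and Dnajc19, a part of the import motor, was lower at -0.72 ± 0.24. Dnajc15, also of the import motor, was higher with the cells than with PBS (0.80 ± 0.20, adjusted p = 0.0297), but not called without Con A + PBS replicate 4 (0.70). Of 14 genes of the TRiC/CCT chaperonin, which folds actin and tubulin, and of prefoldin, which delivers clients to it, 6 rose, among them Cct2 (0.82 ± 0.10), Cct3 (0.77 ± 0.10) and Pfdn4 (0.77 ± 0.20).

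Of the heat shock transcription factors and regulators, 3 of 8 rose and 2 fell. Hsf1, the main factor of the heat shock response, whose protein is controlled mostly after translation, was at 170 to 266 in control mice, 234 to 258 with PBS and 196 to 306 with the cells. Its log2 fold change with PBS was 0.14 ± 0.16 (adjusted p = 0.468). Hsf2 was at -0.25 ± 0.12 (adjusted p = 0.0816) with PBS, and at 0.42 ± 0.12 with the cells against PBS (adjusted p = 0.0388, fold change under 1.5). Ier5, an immediate early gene whose product activates HSF1, rose by 2.04 ± 0.19 (adjusted p = 4.0e-06), from 96 to 168 in control mice to 438 to 576, and was at 344 to 547 with the cells. Ubb, which encodes a chain of ubiquitin units, rose by 1.31 ± 0.15. Hsf4, a relative of Hsf1, was lower with PBS (-0.85 ± 0.16) and higher with the cells than with PBS (0.60 ± 0.16, adjusted p = 0.0375), and the second call was lost without Con A + PBS replicate 4 (0.65).

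The chaperones of the endoplasmic reticulum, which fold secreted proteins and answer to the unfolded protein response, were the only list called in full. All 14 rose with PBS and all 14 with the cells against control, with medians of 1.80 and 1.44, and none of the 14 was called between the Con A groups, where their log2 fold changes ran from -0.71 to 0.42. Hspa5, the HSP70 of this compartment, was at 8577 to 19007 in control mice, 72892 to 341028 with PBS (3.30 ± 0.68) and 25900 to 341028 with the cells. The upper end is the largest value the table holds, so that its changes are limited by the scale. Other genes of this list also shared values between the Con A groups, for example 23483 as the highest value of Pdia4 in both. The absence of calls between these groups therefore does not show that they were alike. Pdia4 and Pdia6, which form disulfide bonds, rose by 2.32 ± 0.22 and 2.22 ± 0.15.

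**Figure D4:**
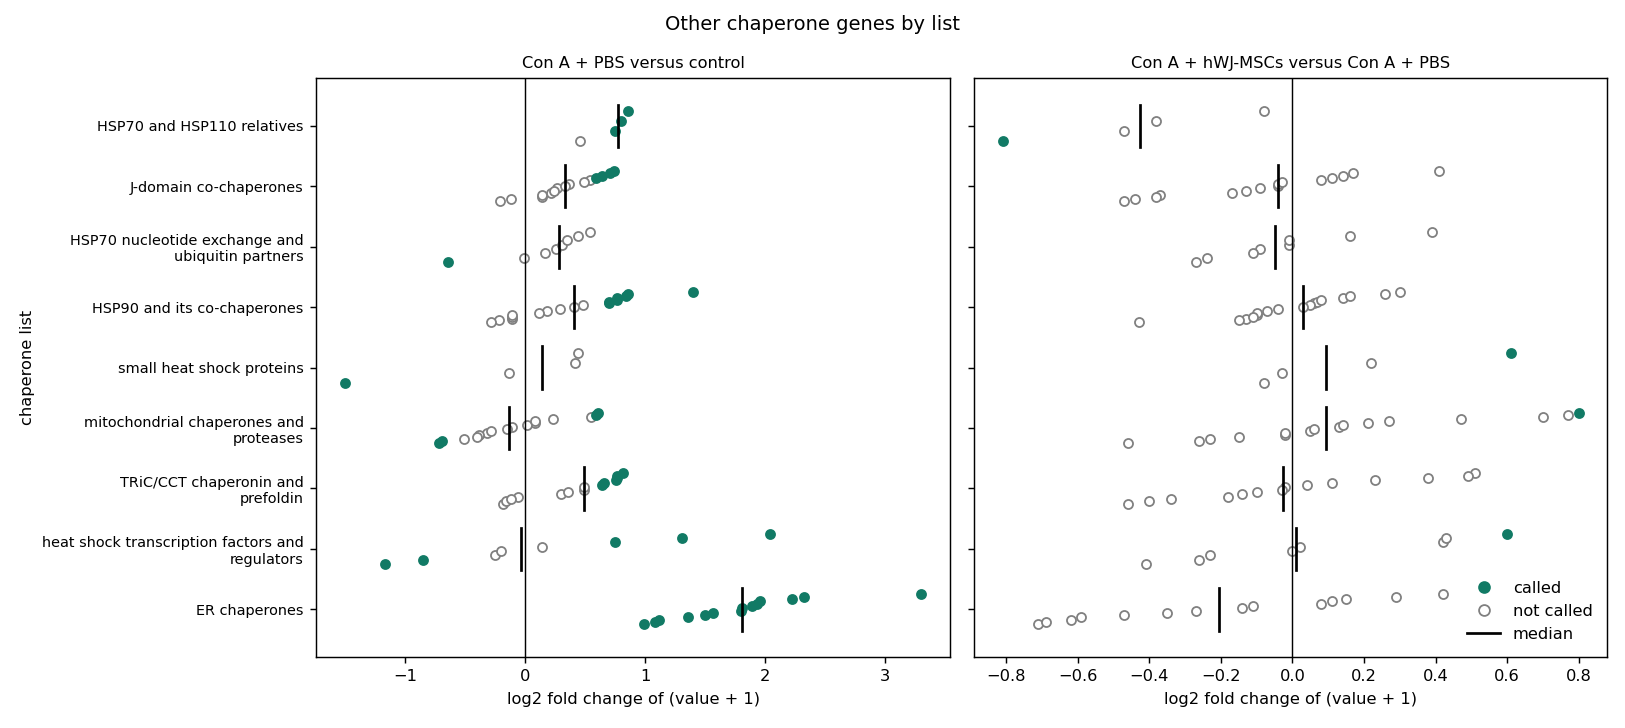
Log2 fold change of (value + 1) for the genes of the 9 chaperone lists, left for Con A + PBS versus control and right for the cells versus PBS (different horizontal scales), with 1 point per gene, filled where called, and a line at the median of each list. All 14 chaperones of the endoplasmic reticulum are filled at 0.99 or more on the left, and 4 of the 100 genes are filled on the right.

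Genes with a pattern most like that of Hspa1a and of Hspd1 over the 12 mice were sought by the root mean square difference of log2(value + 1) after centring each gene on its mean. For Hspa1a the nearest were Ly6c1 (0.564), Steap4 (0.568) and Gvin1 (0.589), where the median over all genes was 1.689. For Hspd1 they were Exoc4 (0.135), Actn4 (0.15) and Lmnb1 (0.153), with a median of 0.448. Gvin1, for example, had a mean of 482 ± 50.8 in control mice, 6198 ± 2004 with PBS and 3023 ± 775 with the cells. The mice share their group in this measure, so that it mostly reflects the group means.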

How the data were processed

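RNA of 12 mouse livers had been sequenced by the authors from poly-A libraries without strand marking as 150 bp paired-end reads. Per the labels, the submitters' processing notes name Bowtie2 2.2.1, RSEM 1.2.18 and the build mm10. The values deposited by the authors are whole-number scores for 11289 genes, each at 64 or more in at least 2 mice; totals and ties show that they had been scaled to a common distribution and are no raw counts. Which normalization was used is not given in the sources used here, and the authors' name for the table differs from what its values show, so tests for counts were not used. Depth is unknown, so no counting error is given.

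Scores were taken as log2(value + 1), which understates changes of low genes, and 1 model of 12 mice was made by lmFit and eBayes with a trend (limma 3.58.1, R 4.3.3). A gene was called where p, two-sided and adjusted by Benjamini-Hochberg over all genes, was below 0.05 and the fold change above 1.5. The fit was tested on simulated data. Python 3.11.15 was used for summaries. Replicates are different animals, taken from the labels. Gene coordinates are the authors' (mm10). Promoters are from RefSeq GRCm38.p6, and exons and shared stretches from GENCODE (GRCm38).

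The members and lists were chosen with earlier results of these data known. Named genes were every member, from each list up to 3 genes with the largest change among those called after Con A + PBS and up to 2 among those called with the cells, Hsf1, Hsf2, and 3 genes most like Hspa1a and Hspd1. A gene that meets this rule is not reported here. Alternatives were another pseudocount, a minimum mean value, median centring, no trend, only the 8 mice compared, a higher fold change, array quality weights, a replicate block, and each mouse left out.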

Additional observations from a re-analysis of the deposited data

Results flagged for a closer look

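Of 30 groups of 4 mice (10 chaperones in 3 groups), 1 held a mouse far from the other 3. Bag3 was at 568 in Con A + hWJ-MSCs replicate 2 and at 722 to 758 in the other mice given cells, so that on the log2 scale the gap was 0.831 of the whole range of the group, just over Dixon's critical value for 4 samples. Chance alone gives about 1 such group in 20.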

How the results depend on the processing

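All 10 chaperones kept their direction after Con A + PBS against control in every alternative run, and the counts called against control moved by over 1.5 times only with a fold change above 2, which left 6 of the 10 with PBS and 5 with the cells. Of the wider network it left 16 higher and 2 lower with PBS, and 15 higher and 1 lower with the cells. The comparison of the cells with PBS depended most on the processing. The members called lower numbered 4 with a pseudocount of 10, 5 with array quality weights (Hspa1a, Hspa1b, Hsph1, Hsp90aa1 and Hspa8, but not Bag3), 0 with a fold change above 2 and between 0 and 4 when each mouse was left out in turn. The network genes called higher there numbered 1 with a pseudocount of 10, 0 with a fold change above 2 and 0 to 4 with a mouse left out, and those called lower 5 with array quality weights, 0 to 2 with a mouse left out, and 0 with a mean value of at least 100, with only the 8 mice compared and with a fold change above 2. A higher fold change can only remove calls. The minimum mean value of 100 left out Hspa2, the only network gene called lower, before any test. Its means were 62.2 in control mice, 114 with PBS and 66.2 with the cells. The cause of the other changes was not tested.

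The sign changed only for values that were not called. For the cells against PBS, Hspb1 ranged from -0.56 to 0.28 and Hspe1 from -0.10 to 0.28 with a mouse left out, and Hspe1 was at -0.06 with array quality weights. Hspa8 with the cells against control ranged from -0.14 to 0.01. Of 624 alternative values of the members, 573 kept their direction and side of the threshold, 32 lost the call, 13 gained it and 6 changed sign. With the replicate number as a replicate block, 10 members were called higher with PBS and 8 with the cells against control, and 3 lower between the Con A groups, where Hsp90aa1 was added (adjusted p = 0.0277). Same-numbered mice are different animals, and the deviations of 4 of 12 same-numbered pairs had a correlation over 0.1 (range -0.118 to 0.375). For differently numbered mice of different groups the range was -0.385 to 0.141. Depth is unknown, and 4 mice per group limit the precision.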
